A study of Mus musculus with 4 samples.

Results

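Neuropeptide precursors are secretory proteins that neurons and endocrine cells cut into short signalling peptides. The 10 precursor genes described here, Pmch, Hcrt, Pomc, Oxt, Avp, Trh, Tac1, Tac2, Penk and Pdyn, were matched by gene symbol in all 4 libraries and are 10 of the 18492 genes with at least 1 read in any library. The set was chosen on measured values of these same libraries, with earlier results for several of the genes known, so every level and ratio of a member below is a description and carries no test. RNA came from the hippocampus of C57BL/6 mice aged 6 months. The groups were wild type (WT), Ogg1-/- (Ogg1 KO), Mutyh-/- (Mutyh KO) and both, labelled Ogg-/- Mutyh-/- (DKO), with 1 library each. Ogg1 and Mutyh encode DNA glycosylases that act on oxidised guanine and on adenine mispaired with it. The labels do not say which part of either gene was deleted, how many animals gave each RNA, or their sex. No difference could be checked against replicates, and the intervals given with ratios cover counting error only.

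The libraries held 18.12, 17.02, 17.15 and 18.2 M (mega-) reads assigned uniquely to genes. Here and below, 4 values in a row follow the order WT, Ogg1 KO, Mutyh KO, DKO. Reads of Ogg1 (94, 130, 81 and 103) were not lower in the libraries labelled as lacking it, whereas those of Mutyh (39, 35, 15 and 20) were lower in both labelled as lacking that gene, so genotypes are given as labelled and a read total is no check of a deletion whose position is not known. The library labelled Mutyh KO also differed in sex-linked RNA, with 10307 Xist reads against 14 in WT and 289 Ddx3y reads against 816. Choroid plexus markers summed to 657, 5318, 5533 and 2831 RPM (reads per 1 M reads of the library) over 20 genes, all of which were above WT in each knockout library. Ribosomal RNA genes summed to 7329, 3516, 13660 and 14806 RPM, highest in the Mutyh KO and DKO libraries in which some precursors stood out, and their part in any result was not tested. Markers of the hippocampus itself were present in all 4 libraries, with 973, 882, 1016 and 993 RPM for 17 dentate granule cell genes and 3281, 2839, 2871 and 3059 for 23 pyramidal cell genes.

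A neuropeptide is made as part of a longer chain whose bioactive stretches are flanked by pairs of basic residues, where convertases cut and carboxypeptidase E then trims. Melanin-concentrating hormone (from Pmch) and the orexins (from Hcrt) are made by neurons of the lateral hypothalamus that project widely, including to the hippocampus. Vasopressin and oxytocin are made by magnocellular and other hypothalamic neurons, thyrotropin-releasing hormone by several hypothalamic and other brain cell groups, and pro-opiomelanocortin by arcuate neurons and by pituitary cells. Enkephalins, dynorphins and tachykinins are made in many brain regions, and granule cells and interneurons of the hippocampus are among their sources.

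The coding stretches that give each family its name are shown to let the members be compared by their products. They were read 5′ to 3′ from the coding sequences of GENCODE M21 transcripts (GRCm38), with the peptide core in capitals and the flanking codons in lower case.
Pmch, melanin-concentrating hormone with the basic pair before it: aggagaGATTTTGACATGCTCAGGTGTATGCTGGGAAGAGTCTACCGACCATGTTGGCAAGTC
Pomc, the second melanocortin core: tccatggagCACTTCCGCTGGggcaagccg
Pomc, the opioid core that opens beta-endorphin: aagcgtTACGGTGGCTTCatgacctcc
Penk, the first opioid core: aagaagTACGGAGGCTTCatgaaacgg
Penk, the opioid core of Leu-enkephalin: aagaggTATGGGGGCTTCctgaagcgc
Pdyn, the first opioid core: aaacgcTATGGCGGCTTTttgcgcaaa
Tac1, the ending of substance P: TTCTTTGGATTAATGggcaagcgg
Tac1, the ending of neurokinin A: TTTGTTGGACTAATGggcaaaaga
Tac2, the ending of neurokinin B: TTTGTGGGACTTATGggcaagagg
Trh, the first TRH unit: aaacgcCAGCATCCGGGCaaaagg
Oxt, oxytocin with the processing signal after it: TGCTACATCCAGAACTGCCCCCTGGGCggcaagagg
Avp, vasopressin with the processing signal after it: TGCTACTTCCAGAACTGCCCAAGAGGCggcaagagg
The opioid core (Tyr, Gly, Gly, Phe) occurred 7 times in the 268 codons of Penk, 3 times in the 248 of Pdyn and 1 time in the 235 of Pomc. Pomc also held 3 melanocortin cores (His, Phe, Arg, Trp). The tachykinin ending occurred 2 times in Tac1 and 1 time in Tac2, each followed by a glycine codon and a basic pair. Trh repeated the unit Gln, His, Pro, Gly with a basic pair on each side 5 times and held 12 basic pairs, as many as Penk. The Oxt and Avp nonapeptides differed at 5 of 27 bases, which changed 2 of 9 residues. Pmch carried its hormone once, in the last 19 of 165 codons, and held 2 basic pairs, as did Hcrt in its 130 codons. Trh, with 5 units, had the lowest mean level of the 10, and Penk, with 7 cores, the highest.

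Penk, Pdyn, Tac1 and Tac2 had at least 39 reads in every library and Trh had 10 to 20, whereas Pmch, Hcrt, Pomc, Oxt and Avp each had 8 or fewer in at least 2 libraries. On the scale of RPKM, which divides reads by transcript length and library total, Penk was the highest member in all 4 libraries. Tac1 was second in WT, Ogg1 KO and DKO but behind Hcrt in Mutyh KO. The 10 members summed to 34.7, 39.1, 47.3 and 36.1 RPKM, of which Penk made up 55.9%, 53.7%, 42.5% and 48.8%. Pmch ranked 10 in WT, Ogg1 KO and DKO but 4 in Mutyh KO. Averaged over all libraries, 6 members reached 1 RPKM, namely Penk, Pdyn, Tac1, Tac2, Pmch and Hcrt. Pmch and Hcrt reached it through the Mutyh KO library alone, with means of 0.0999 and 0.665 RPKM over the other 3. Pomc (mean 0.833 RPKM), Oxt (0.636), Avp (0.913) and Trh (0.590) did not reach it.

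**Figure D1:**
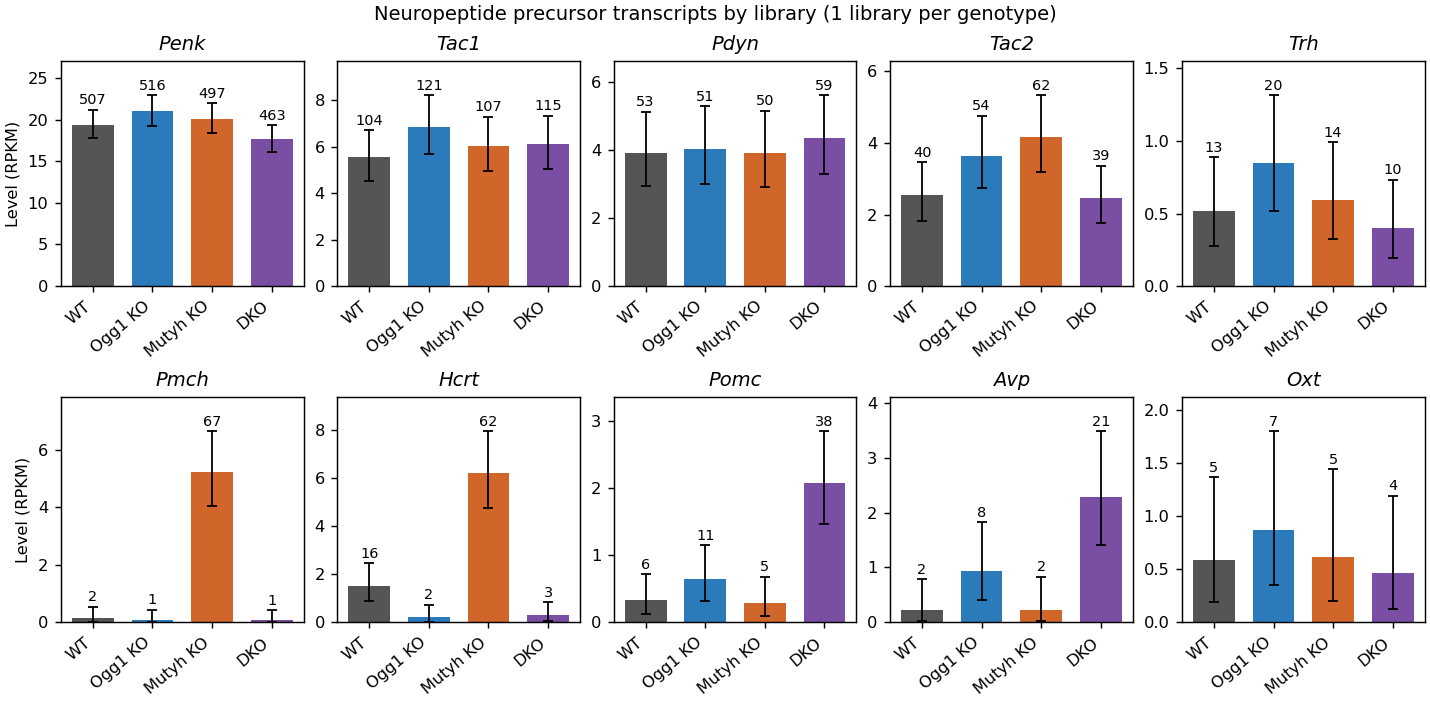
Level of each precursor in RPKM in the 4 libraries, 1 value per library with the exact 95% Poisson interval of its read count. Penk sits between 17.6 and 21.0 RPKM in all 4 libraries, whereas Pmch stands at 5.22 RPKM in Mutyh KO and at 0.148 RPKM or less in the other 3.

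Penk encodes proenkephalin, the source of Met- and Leu-enkephalin. It had 507, 516, 497 and 463 reads, or 19.4, 21.0, 20.1 and 17.6 RPKM. The DKO library was the lowest and Ogg1 KO the highest, and the ratio of reads per library total was 0.909 for DKO over WT (95% interval 0.800 to 1.03). Between the extremes, DKO over Ogg1 KO, it was 0.839 (0.739 to 0.953), an interval that lies below 1 although the difference is small. Penk is overlapped on the opposite strand by A830012C17Rik, and whether reads were counted by strand is not given in the sources used here.

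Pdyn encodes prodynorphin, which yields dynorphins and alpha-neoendorphin and is a product of dentate granule cells. Its 53, 51, 50 and 59 reads corresponded to 3.92, 4.01, 3.90 and 4.34 RPKM. No library stood out, and the ratios to WT were 1.02 for Ogg1 KO (0.683 to 1.53), 0.997 for Mutyh KO (0.664 to 1.50) and 1.11 for DKO (0.752 to 1.64). At this depth the intervals leave room for a Pdyn difference of that width in either direction.

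Tac1 encodes the precursor of substance P and neurokinin A. It had 104, 121, 107 and 115 reads, or 5.55, 6.87, 6.04 and 6.11 RPKM, with WT the lowest library. All 3 ratios to WT had intervals that included 1, the highest being 1.24 for Ogg1 KO (0.945 to 1.63).

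Tac2 encodes the precursor of neurokinin B. Reads numbered 40, 54, 62 and 39, and levels were 2.54, 3.65, 4.16 and 2.46 RPKM. Both single knockout libraries lay above WT and DKO. The ratio to WT was 1.44 for Ogg1 KO (0.937 to 2.22), 1.64 for Mutyh KO (1.08 to 2.50) and 0.970 for DKO (0.608 to 1.55). Set against Mutyh KO, DKO was at 0.593 (0.386 to 0.899). The Mutyh KO difference from WT was 0.54 in log2 of RPKM plus 1, below the 2-fold limit.

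Pmch and Hcrt were high in the library labelled Mutyh KO. Pmch had 2, 1, 67 and 1 reads, or 0.148, 0.0785, 5.22 and 0.0734 RPKM; nearly all of its reads came from 1 library. The ratio of Mutyh KO to WT was 35.4 (9.42 to 298), and that of Mutyh KO to Ogg1 KO was 66.5 (11.5 to 2666). Set against Mutyh KO, DKO was 71.1-fold lower, a ratio of 0.0141 whose interval reached up to 0.0811. No ratio is given among WT, Ogg1 KO and DKO, which all held 3 Pmch reads or fewer.

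Hcrt had 16, 2, 62 and 3 reads, or 1.51, 0.201, 6.19 and 0.282 RPKM. Mutyh KO was again the highest library, but WT lay between it and the pair labelled as lacking Ogg1. Mutyh KO exceeded WT by a ratio of 4.09 (2.33 to 7.60) and Ogg1 KO by 30.8 (8.17 to 260). Below WT, the library labelled Ogg1 KO was at 0.133 (0.0148 to 0.566) and DKO at 0.187 (0.0348 to 0.652). These are ratios of 2 and 3 reads to 16, and no ratio is given between Ogg1 KO and DKO, which both held 3 reads or fewer.

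The 250 bases before the annotated start of both genes are shown because the members that stood out shared their direction in the same library. They are RefSeq sequences on GRCm38.p6, given on the gene's own strand 5′ to 3′, in lower case with TATAAA matches in capitals, at chr10:88090822-88091071 on the plus strand for Pmch and chr11:100762932-100763181 on the minus strand for Hcrt.
Pmch: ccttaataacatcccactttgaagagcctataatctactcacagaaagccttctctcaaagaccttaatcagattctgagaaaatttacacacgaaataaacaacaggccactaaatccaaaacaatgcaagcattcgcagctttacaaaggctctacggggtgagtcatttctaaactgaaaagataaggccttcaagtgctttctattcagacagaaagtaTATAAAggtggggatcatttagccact
Hcrt: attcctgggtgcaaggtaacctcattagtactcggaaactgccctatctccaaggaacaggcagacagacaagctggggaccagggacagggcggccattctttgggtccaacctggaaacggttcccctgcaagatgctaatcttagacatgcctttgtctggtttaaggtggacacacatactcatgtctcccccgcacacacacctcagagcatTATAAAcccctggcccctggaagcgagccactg
TATAAA, searched on both strands, lay 27 bases before the start of Pmch and 33 bases before that of Hcrt. Among all 32851 RefSeq windows of 250 bases, 12.4% held it. Of the 9 members with a promoter in the table, only Pomc held it besides these; Penk had no match there. The letters are a description of the window and not a measured site.

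The spread of reads along the transcript differed between Pmch and Hcrt. In Mutyh KO the 62 Hcrt reads covered 88.9% of its 584 bases, and the 62 Tac2 reads covered 62.4% of 870 bases. The 67 Pmch reads covered 48.1% of 748 bases, or 360 bases. In GENCODE M21, exons 2 and 3 of Pmch, 435 bases together, lie wholly within an exon of Parpbp on the opposite strand, and the first exon of 314 bases does not. Parpbp itself had 2, 8, 4 and 11 reads, so it was not high where Pmch was. How the covered bases were placed between these exons cannot be read from a percentage.

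**Figure D2:**
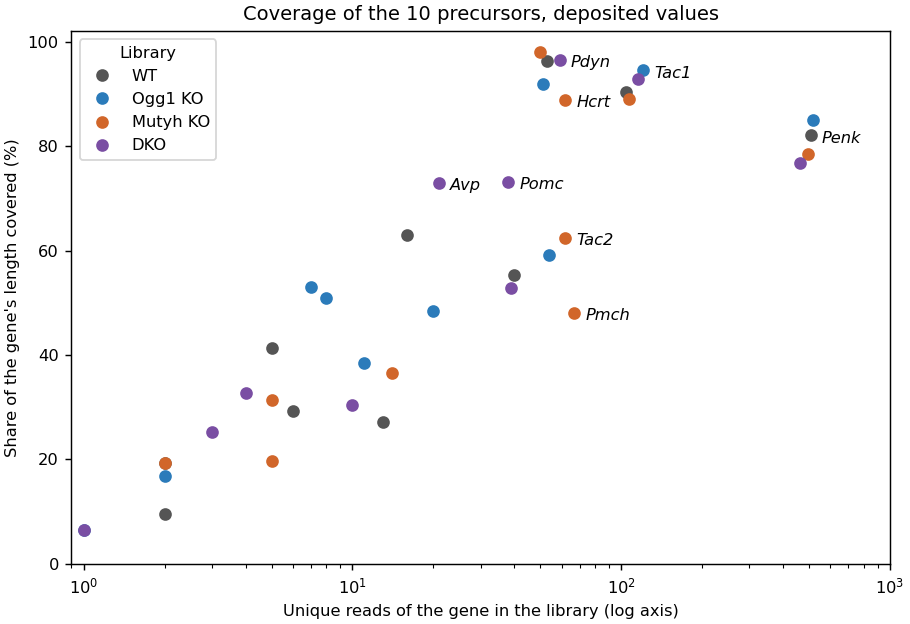
Share of each precursor's transcript covered by reads (percent) against its read count (log axis), 1 point per gene and library. In Mutyh KO, Pmch at 67 reads lies at 48.1%, below Hcrt at 62 reads and 88.9%.

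Other hypothalamic genes were counted beside these peptides. A list of 34 hypothalamus markers without the members, 32 of them with reads, summed to 368, 418, 435 and 351 RPM. Peg3, an imprinted gene active in many neurons, gave most of those reads, and without it, a choice made after its values were seen, the sums were 123, 110, 127 and 98.8. Of the 10 markers with a mean of at least 1 RPKM, 0 were 2-fold different from WT in any knockout library, with a median log2 ratio of 0.09 in Mutyh KO. This count is near the share of all genes past 2-fold, 0.766%, 0.834% and 0.592% in Ogg1 KO, Mutyh KO and DKO. Of these 10 markers, 7 lay above WT and 3 below it in Mutyh KO, from −0.23 to 0.33 in log2. Over the 32 markers with reads, 2 had a Mutyh KO to WT interval above 1 and 1 an interval below it. No share of all genes was computed beside these interval counts. Among markers named after their values were seen, Agrp had 3, 3, 8 and 5 reads, Gal 4, 3, 8 and 3, Otp 0, 1, 1 and 2, and Hdc 59, 35, 75 and 67. Agrp, Gal, Otp and Hdc all lay above WT in Mutyh KO and do not stand for the list. Of its 10 more abundant markers, 3 lay below WT there. The number of listed markers at 0 reads was 3, 3, 2 and 3, with Npvf at 0 in all but DKO and Hmx3 at 0 in all but WT. In bulk RNA, more cells of a type and more RNA per cell cannot be told apart. The part of these markers, and of the sex-linked difference of the same library, in the Pmch and Hcrt levels was not tested.

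Pomc and Avp were high in the library labelled DKO. Pomc had 6, 11, 5 and 38 reads, or 0.329, 0.642, 0.290 and 2.07 RPKM. The DKO library was the highest, and its ratio was 6.30 to WT (2.64 to 18.2), 3.23 to Ogg1 KO (1.62 to 7.01) and 7.16 to Mutyh KO (2.81 to 23.3). Among the other 3 libraries every Pomc interval included 1, the ratio of Ogg1 KO to WT being 1.95 (0.661 to 6.43).

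Avp had 2, 8, 2 and 21 reads, or 0.218, 0.927, 0.230 and 2.28 RPKM. The order placed DKO first and Ogg1 KO second, with WT and Mutyh KO at 2 reads each. DKO stood at a ratio of 10.5 to WT (2.55 to 91.9), 2.46 to Ogg1 KO (1.04 to 6.41) and 9.89 to Mutyh KO (2.42 to 87.0). Ogg1 KO over WT was 4.26, with an interval from 0.850 to 41.2. Reads covered 73.0% of the 507 bases of Avp and 73.1% of the 1007 bases of Pomc in DKO, so neither count came from a single stretch of the transcript.

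Oxt, whose gene neighbours Avp on chromosome 2, had few reads in all 4 libraries. Its 5, 7, 5 and 4 reads gave 0.586, 0.873, 0.619 and 0.467 RPKM. DKO was the lowest library for Oxt, at 0.796 of WT (0.158 to 3.70), where Avp was at its highest. The difference between the ratios of the neighbours was not tested.

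The same 250-base windows are given for Pomc, at chr12:3954695-3954944 on the plus strand, and for Avp, at chr2:130582589-130582838 on the minus strand, with TATAAA in capitals for Pomc and CCAAT in capitals for Avp.
Pomc: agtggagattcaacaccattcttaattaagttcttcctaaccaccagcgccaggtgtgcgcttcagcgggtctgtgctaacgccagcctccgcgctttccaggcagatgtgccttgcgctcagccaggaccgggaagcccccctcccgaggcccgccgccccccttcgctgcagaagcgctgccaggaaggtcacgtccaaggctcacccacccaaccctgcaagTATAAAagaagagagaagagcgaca
Avp: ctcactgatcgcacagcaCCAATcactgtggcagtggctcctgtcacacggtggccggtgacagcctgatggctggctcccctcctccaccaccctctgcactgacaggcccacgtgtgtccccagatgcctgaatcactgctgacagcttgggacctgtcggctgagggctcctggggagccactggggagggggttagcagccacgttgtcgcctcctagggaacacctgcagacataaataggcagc
TATAAA lay 25 bases before the RefSeq start of Pomc and was not among the letters of the Avp window. The bases just after the start were found in no GENCODE M21 transcript of the gene for Pomc or Avp, whereas for Pmch and Hcrt they were. CCAAT, searched on both strands and held by 33.8% of all windows, was present in the windows of Avp, Tac1 and Pdyn. TGACG, a half-site of the cyclic AMP response element held by 17.8% of windows, was present for Trh and Tac1, and the full TGACGTCA, held by 1.55%, for none of the 9.

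Pituitary hormone genes were also high in DKO. Gh, encoding growth hormone, had 4, 7, 1 and 256 reads, and its DKO to WT ratio was 63.7 (24.6 to 236). Prl, encoding prolactin, had 0, 5, 4 and 48 reads, Lhb 4, 9, 8 and 14, Tshb 0, 2, 3 and 7, and Cga, the shared subunit of glycoprotein hormones, 0, 0, 0 and 8. The 11 pituitary markers with reads, out of 13 and without the members, summed to 0.607, 1.59, 1.22 and 18.7 RPM, with 7, 4, 4 and 3 genes at 0 reads. The pituitary transcription factor genes Tbx19 (0, 1, 0 and 0 reads) and Pou1f1 (1, 0, 1 and 0) and the gonadotropin subunit gene Fshb (0, 1, 0 and 0) had at most 1 read in any library. In that library the 38 Pomc reads and 21 Avp reads stood beside 340 reads of these pituitary genes, and the hypothalamus list was at its lowest of the 4 libraries. The part of either tissue in the DKO level of Pomc or Avp was not tested.

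**Figure D3:**
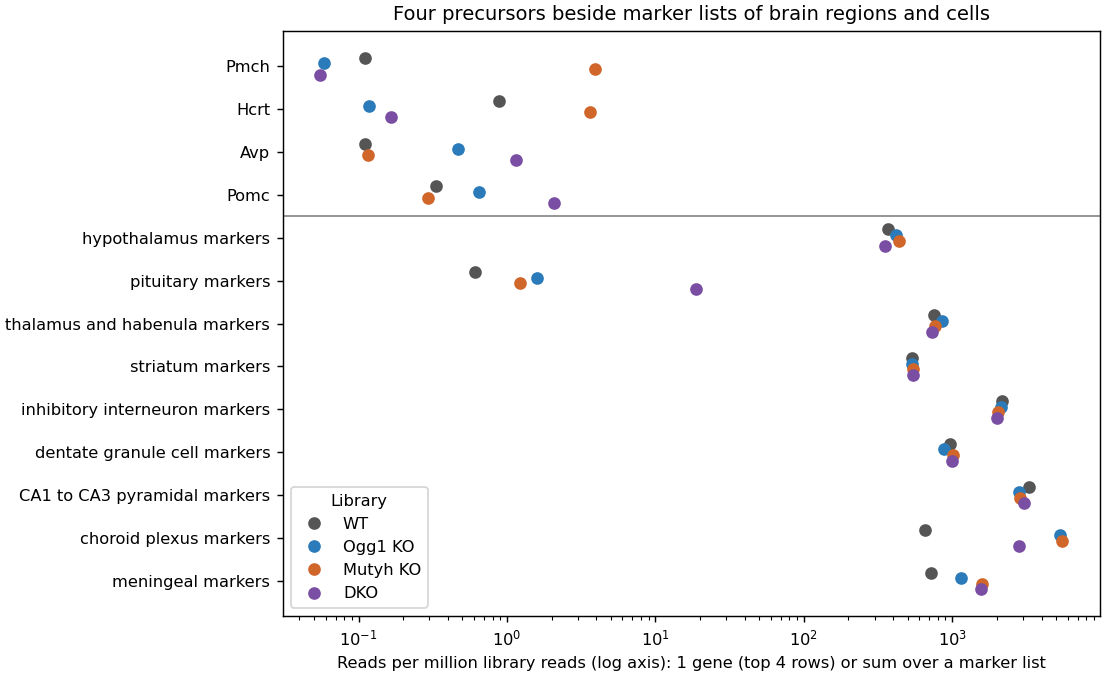
RPM (log axis) of Pmch, Hcrt, Pomc and Avp in the 4 libraries, beside the summed markers of 9 brain regions, tissues and cell types, 1 point per library. The pituitary sum is 18.7 in DKO and 1.59 or less in the other 3 libraries, while the hypothalamus sum stays between 351 and 435. Peg3 gives most of the hypothalamus sum, which without it lies between 98.8 (DKO) and 127 (Mutyh KO).

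Trh had 13, 20, 14 and 10 reads, or 0.520, 0.851, 0.591 and 0.398 RPKM. Ogg1 KO was the highest library and DKO the lowest, and the ratio of DKO to Ogg1 KO was 0.468 (0.195 to 1.05). All 3 ratios of Trh to WT had intervals that included 1, from 0.766 for DKO (0.301 to 1.89) to 1.64 for Ogg1 KO (0.775 to 3.58).

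A member was counted as different where log2 of RPKM plus 1 differed by at least 1, which is 2-fold, among the 13186 genes with a mean of at least 1 RPKM. Because the members were picked with these contrasts known, the counts are set beside the share of all genes only as a description. For Ogg1 KO against WT, 1 of 6 members (Hcrt, lower, at −1.06) was past the limit, beside 0.766% of all genes. For Mutyh KO against WT, it was 2 of 6 (Pmch at 2.44 and Hcrt at 1.52, both higher), beside 0.834%. Pmch and Hcrt are among the 6 through the Mutyh KO library alone, so that count was partly set by the filter. For DKO against WT, the count was 0 of 6 beside 0.592%, with Hcrt just short of the limit at −0.97. Comparisons with WT share the WT library, in which Hcrt had 16 reads, so they are not independent of one another.

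The direct comparisons between knockouts gave 0 of 6 members for DKO against Ogg1 KO, beside 0.387% of all genes. DKO against Mutyh KO gave 2 of 6 (Pmch at −2.54 and Hcrt at −2.49), beside 0.303%. Mutyh KO against Ogg1 KO gave the same 2 genes, higher by 2.53 and 2.58 on the log2 scale, beside 0.417%. Median log2 ratios of the 6 members were 0.07, 0.32 and −0.06 against WT for the libraries labelled Ogg1 KO, Mutyh KO and DKO, where the medians of all 13186 genes were 0.02, 0.01 and −0.00. Pmch and Hcrt are among those 6 through the Mutyh KO library alone. These medians, and the counts of 2 of 6 against Mutyh KO or of Mutyh KO, thus depend on the filter.

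With no filter on low levels, all 10 members entered among 18492 genes. DKO against WT then gave 2 of 10 (Avp at 1.43 and Pomc at 1.21, both higher), beside 0.535% of all genes. DKO against Mutyh KO gave 4 of 10, with Avp (1.41) and Pomc (1.25) higher and Pmch and Hcrt lower, beside 0.319%. The count was 1 of 10 for Ogg1 KO against WT beside 0.703%, 2 of 10 for Mutyh KO against WT beside 0.698%, 0 of 10 for DKO against Ogg1 KO beside 0.46%, and 2 of 10 for Mutyh KO against Ogg1 KO beside 0.416%. The medians of all 10 members were 0.25, 0.06 and −0.06 against WT for Ogg1 KO, Mutyh KO and DKO, so that Ogg1 KO and not Mutyh KO had the highest. Penk, Pdyn, Tac1, Tac2, Trh and Oxt were past the limit in none of the 6 comparisons with or without the filter.

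**Figure D4:**
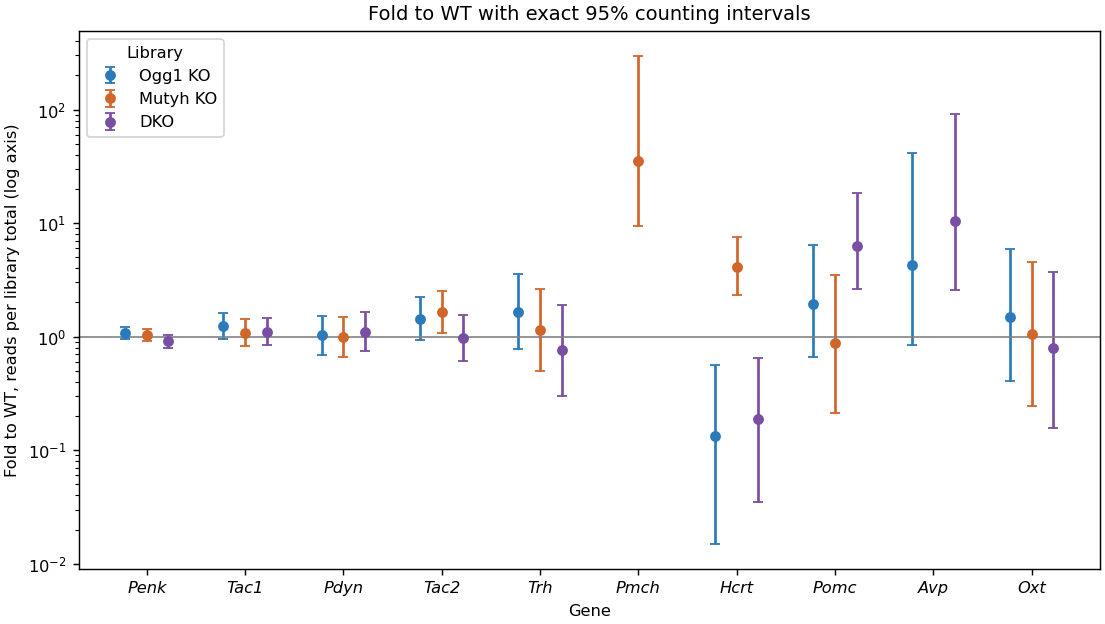
Ratio of reads per library total to WT (log axis) for each precursor in the 3 knockout libraries, with the exact 95% interval for counting error; a ratio between libraries that both held 3 reads or fewer is not drawn. Penk, Pdyn and Tac1 lie close to 1 in every library, while Pmch in Mutyh KO stands at 35.4 and Avp in DKO at 10.5.

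By the labels, the difference that goes with loss of each gene can be set out with the other present and absent. Genotype cannot be told apart here from anything else that differs between the libraries, including the sex-linked RNA of Mutyh KO. For Pmch, the log2 difference that goes with loss of Mutyh was 2.44 with Ogg1 intact (Mutyh KO against WT), and without Ogg1 no difference is given, since Ogg1 KO and DKO held 1 read each. For Hcrt it was 1.52 with Ogg1 intact, and Ogg1 KO and DKO held 2 and 3 reads. Loss of Ogg1 went with Hcrt differences of −1.06 with Mutyh intact and −2.49 without it, so Hcrt was lower in both libraries labelled as lacking Ogg1. For Pomc the loss of Mutyh went with −0.04 in the presence of Ogg1 and 0.90 in its absence. For Avp it went with 0.77 in the absence of Ogg1, while WT and Mutyh KO held 2 reads each. For Tac2 the values were 0.54 and −0.42. The log2 value of DKO departed from the sum of both single differences by −1.42 for Hcrt, −0.97 for Tac2 and 0.95 for Pomc, and by −0.47 to 0.10 for Oxt, Trh, Tac1, Penk and Pdyn. The Hcrt departure takes in the 2 and 3 reads of Ogg1 KO and DKO, between which no ratio is given. No departure is given for Pmch and Avp, for which a single difference rests on libraries of 3 reads or fewer. Each of these rests on 4 libraries with no spread between animals, so none was tested.

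Likeness of pattern was measured as the Euclidean distance between a member's 3 log2 ratios to WT and those of every gene with a mean of at least 1 RPKM, over the 4 libraries. Nearest to Pmch were Cox8b (distance 0.99; 9, 19, 79 and 14 reads), Entpd4 (1.17; 1451, 1458, 3419 and 1445 reads) and Mir1966 (1.24; 2, 1, 7 and 2 reads). Nearest to Hcrt were Mir467f (1.13), Mir1966 (1.21) and Cyr61 (1.42; 90, 68, 152 and 71 reads). For Pomc and Avp, Crabp2 was nearest (0.34 and 0.61; 28, 33, 35 and 79 reads). Tnnt1 (0.40) and Gjb2 (0.53; 175, 225, 241 and 399 reads) followed for Pomc, and Gjb2 (0.67) and Slc22a6 (0.69; 112, 157, 180 and 310 reads) for Avp. The members' own ranges over the 4 libraries were 2.54 for Pmch, 2.58 for Hcrt, 1.25 for Pomc and 1.43 for Avp. Mir467f had 2, 1, 5 and 1 reads, so its likeness to Hcrt rests on few reads. Tnnt1, with 13, 18, 13 and 36 reads, is in the thalamus and habenula list, and Cyr61 is in the list of immediate early genes. The thalamus and habenula list summed to 758, 856, 770 and 734 RPM, lowest in DKO where Tnnt1 was highest. Slc22a6 is in the meningeal list, whose 14 genes summed to 721, 1150, 1595 and 1565 RPM.

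Receptors of the members' peptides stayed within 2-fold of WT where they were abundant enough to be counted. Of 21 receptor genes, 7 had a mean of at least 1 RPKM and 0 of those differed 2-fold from WT in any knockout library. Over all genes the share past 2-fold was 0.766%, 0.834% and 0.592% in Ogg1 KO, Mutyh KO and DKO. At such shares, 0 of 7 says little about receptors. Mchr1, the receptor of melanin-concentrating hormone in rodents, had 285, 290, 251 and 302 reads, and its ratio of Mutyh KO to WT was 0.931 (0.782 to 1.11) where Pmch stood at 35.4. The orexin receptor genes Hcrtr1 (27, 29, 23 and 31 reads) and Hcrtr2 (43, 49, 46 and 47 reads) had intervals that included 1 in each ratio to WT. Oprl1, encoding the nociceptin receptor of the opioid family, was the highest of the list at a mean of 13.1 RPKM and was at 0.857, 0.849 and 0.837 of WT in Ogg1 KO, Mutyh KO and DKO, with all 3 intervals below 1. Oprd1, the delta opioid receptor bound by enkephalins, was next after Mchr1 at 4.23 RPKM and had ratios of 0.865 to 0.882. Mc4r, a receptor of the melanocortins cut from Pomc, had 137, 67, 74 and 86 reads and was lower than WT in all 3 knockout libraries, at 0.520 (0.383 to 0.702), 0.571 (0.424 to 0.763) and 0.625 (0.471 to 0.824). It is named here after its values were seen. Oxtr, the oxytocin receptor, had 288, 241, 241 and 211 reads, and DKO was at 0.729 of WT (0.608 to 0.874). Over the 21 receptor genes, the interval of the ratio to WT lay above 1 for 2 genes and below it for 2 in Mutyh KO. In DKO it lay above 1 for 2 genes and below it for 3, and in Ogg1 KO for 0 and 3. No share of all genes was computed beside these interval counts. Receptors named here with an interval excluding 1 were all lower than WT and do not stand for the list. All of these comparisons with WT rest on the same WT library.

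The most abundant peptide genes were precursors outside the 10. Of 53 other precursors listed, 46 had reads, 19 had a mean of at least 1 RPKM, and 0 of those were 2-fold different from WT in any knockout library, with medians of 0.10, 0.00 and −0.05. With 0.766%, 0.834% and 0.592% of all genes past 2-fold, 0 of 19 is near the share of all genes. Cck, encoding cholecystokinin, had 3672, 4457, 2971 and 3797 reads (mean 301 RPKM), Sst, encoding somatostatin, 3500, 3067, 2906 and 2735 (mean 289 RPKM), and Npy, encoding neuropeptide Y, 689, 696, 769 and 669 (mean 71.5 RPKM). Per length, the mean of Cck was thus above the summed level of all 10 members in every library. Sst was at 0.933 (0.888 to 0.979), 0.877 (0.835 to 0.922) and 0.778 (0.740 to 0.818) of WT in the 3 knockout libraries.

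Genes that make and store peptides stayed within 2-fold of WT. Of 18 processing enzymes and their partners, 17 had a mean of at least 1 RPKM and 0 of those were past the limit, with medians of −0.01, 0.07 and −0.01. Cpe, which trims the basic residues left after cutting, had 35160, 32828, 30650 and 33975 reads (mean 894 RPKM). Pcsk1n, encoding the convertase inhibitor proSAAS, averaged 249 RPKM, and Scg5, encoding the chaperone 7B2 of convertase 2, averaged 90.5 RPKM. All 13 detected dense core granule genes had a mean of at least 1 RPKM and 0 were past the limit, with Chgb, Ptprn and Scg3 highest at 206, 185 and 134 RPKM. For both lists, the count of 0 stood beside 0.766%, 0.834% and 0.592% of all genes in Ogg1 KO, Mutyh KO and DKO. It is near those shares.

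Of 14 peptide degrading enzymes, 11 had a mean of at least 1 RPKM, and 3 of those were 2-fold higher than WT in at least 1 knockout library. The counts were 2 of 11 in Ogg1 KO, 1 of 11 in Mutyh KO and 2 of 11 in DKO, beside 0.766%, 0.834% and 0.592% of all genes, and the list's medians were 0.07, 0.10 and 0.08. Ace, encoding the angiotensin-converting enzyme, had 401, 2022, 2436 and 1264 reads, at ratios of 5.37 (4.82 to 5.99), 6.42 (5.77 to 7.15) and 3.14 (2.80 to 3.52) to WT. The order of the libraries for Ace was that of the choroid plexus sum, highest in Mutyh KO, then Ogg1 KO, DKO and WT, and the part of that tissue in the Ace level was not tested. Anpep, encoding aminopeptidase N, had 105, 276, 141 and 170 reads and was past the limit in Ogg1 KO (1.09 in log2 of RPKM plus 1). Lnpep, encoding the aminopeptidase that cleaves oxytocin and vasopressin, had 186, 382, 389 and 516 reads and was past it in DKO (1.12), at a ratio of 2.76 (2.33 to 3.28). Trhde, whose product degrades thyrotropin-releasing hormone, had 759, 729, 736 and 781 reads, with ratios to WT of 1.02 in all 3 knockout libraries. Prepl and Thop1, the other abundant genes of the list with means of 87.1 and 16.6 RPKM, had ratios to WT of 0.996 to 1.04 and 0.891 to 0.976.

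**Figure D5:**
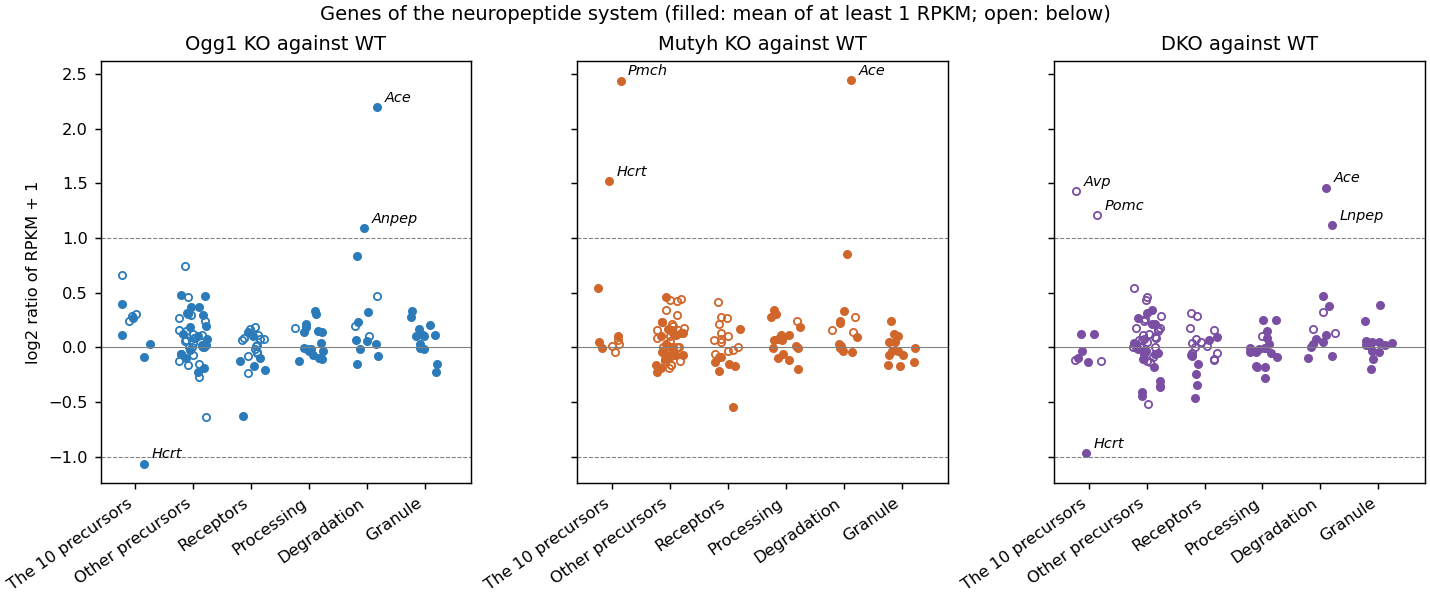
Log2 ratio to WT of RPKM plus 1 for each gene with reads in the lists of members, other precursors, receptors, processing, degrading and granule genes, in each knockout library, 1 point per gene (filled where the mean is at least 1 RPKM, open below it), with dashed lines at 2-fold. Filled points past the lines are Pmch, Hcrt, Ace, Anpep and Lnpep, and the open points past them are Avp (1.43) and Pomc (1.21) in DKO.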

How the data were processed

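Hippocampal RNA of 4 genotypes was sequenced as 1 library each, on genome build mm9 per the submitters' processing notes; the aligner, counter, annotation and strandedness are not given in the sources used here. The authors deposited for each gene a count of unique reads, the percent of the transcript covered, its length and an RPKM, per the file headers. Genes without reads are not listed and were taken as 0. Rows without a symbol (0.0179% to 0.0195% of reads) could not match a gene list, but stayed in the library totals and in the counts and medians over all genes. The members and gene lists were chosen with earlier results of these data known.

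Ratios are reads per library total with exact conditional (Clopper-Pearson) 95% intervals, which cover counting error only, since reads are not independent molecules. No ratio of reads was formed where both libraries held 3 reads or fewer, although such genes stay in the counts, medians and distances of log2 ratios. Calls used log2 of RPKM + 1 with a 2-fold limit among genes with a mean of at least 1 RPKM, a fold that understates changes of low genes. Named outside the members were the 3 genes of highest mean in each list of the peptide system, genes past 2-fold in any list (up to 5) and the 3 nearest in pattern. As exceptions, genes past 2-fold in the choroid plexus, blood, meningeal and ribosomal RNA lists are given only as list sums. Of the sex-linked genes past it, only Xist and Ddx3y are named, and not Eif2s3y and Uty. Other names were added after values were seen. Of the tissue lists, the 17 listed striatum markers summed to 537, 535, 545 and 545 RPM (reads per 1 M library reads), 25 interneuron markers to 2160, 2143, 2051 and 1999, 20 thalamus and habenula markers to 758, 856, 770 and 734, 6 blood markers to 36.5, 73.4, 126 and 57.3, and 28 immediate early genes to 1419, 1392, 1466 and 1170 (24 of them below WT in DKO, median log2 ratio −0.28), in the order WT, Ogg1 KO, Mutyh KO, DKO. The calculations were tested on simulated data. Alternatives were 3 scalings (TMM from edgeR 4.0.16 in R 4.3.3, median of ratios, and totals without choroid plexus, blood and ribosomal RNA), other pseudocounts and filters, and a call by interval. Python 3.11.15, numpy 2.4.6, pandas 2.3.3, scipy 1.17.1 and matplotlib 3.10.9 were used. Sequences came from RefSeq (GRCm38.p6) and GENCODE M21 (GRCm38), another build than that of the counts, so no coordinates were joined.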

Additional observations from a re-analysis of the deposited data

How the results depend on the processing

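Counts of members past 2-fold were unchanged in all 6 comparisons under the 3 scalings, whose factors relative to WT ranged from 0.989 to 1.02. With a pseudocount of 2 RPKM, the count for Ogg1 KO against WT went from 1 to 0 as Hcrt dropped out. The share of all genes was then 0.493%. For DKO against WT, where the main count was 0, the count was 1 with a pseudocount of 0.1 RPKM (Hcrt, lower). It was also 1 when calls were made from ratios whose interval excludes 1 (Hcrt, lower), beside 1.28% of all genes. With no filter or with a mean of at least 0.1 RPKM it was 2 (Pomc and Avp, higher), beside 0.535% and 0.607%. For DKO against Mutyh KO it went from 2 to 4 with no filter or with that lower filter, beside 0.319% and 0.362%. A pseudocount of 0.1 RPKM also raised the count over all genes from 78 to 158 for DKO against WT, so a member past the limit there stands beside 1.2% of genes. Of 300 member ratios recomputed, 276 moved by less than counting error, and the 24 that moved more were all under another pseudocount. Among the 11 ratios past 2-fold with no filter, 0 changed sign, but 5 fell below 2-fold with a pseudocount of 2 RPKM. These were Hcrt in Ogg1 KO against WT and every Pomc and Avp ratio past the limit in DKO. Pomc fell to 0.81 against WT and 0.83 against Mutyh KO, and Avp to 0.95 and 0.94. Of all other ratios, only Pdyn in Mutyh KO against WT changed sign, from −0.00 to 0.01 with totals without choroid plexus, blood and ribosomal RNA. No paired analysis was possible because each genotype has 1 library, and for the same reason no replicate could be left out. Depth limits Pmch, Hcrt, Pomc, Oxt and Avp, each with 8 reads or fewer in at least 2 libraries, to differences of several fold there.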
